A study of Caenorhabditis elegans with 2 samples.

Results

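The histone genes of the nematode Caenorhabditis elegans were taken as the protein-coding genes named his- plus a number in the Ensembl release 115 annotation of WBcel235. There were 72 of them among 19973 nuclear protein-coding genes. Ensembl gives identical copies the same name, so the 72 genes carry 50 distinct names there, and the RefSeq symbols, which are distinct for all 72, are used below. By their RefSeq products 17 genes code for histone H2A, 16 for H2B, 15 for H3, 16 for H4, 5 for the H3.3 variants and 1, his-24, for the linker histone H1. The products of his-39 and his-73 are named only as histone domain-containing proteins.

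The DNA binding of DAF-19, an RFX transcription factor, had been mapped by chromatin immunoprecipitation and sequencing in whole L4 larvae, 48 hours old, grown from starved L1 animals. The strain, OP794, carries the transgene wgIs794, in which daf-19 is joined to the TY1, EGFP and 3xFLAG tags, together with the rescuing unc-119(+) in an unc-119(tm4063) mutant background. The labels name no mutation of daf-19 itself, so nothing in them says that the untagged gene is missing. They give 1 group of 2 biological replicates with no second condition. Precipitation used an anti-GFP antibody on chromatin sonicated to 200 to 800 bp, and the labelled tissue is the whole organism, so a peak cannot be placed in a cell type.

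Core histones H2A, H2B, H3 and H4 form the nucleosome around which DNA is wrapped, and H1 binds the linker between nucleosomes. In most animals, the worm included, the genes of the core histones lie in clusters of near-identical copies, often as divergent pairs that share 1 short promoter region, and they are transcribed mainly in cells that copy their DNA. The H3.3 variants are made outside DNA replication as well. DAF-19 is known for a different set of genes, those of sensory cilia, which it reaches through a promoter element called the X-box.

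The 72 genes fell into 19 units when genes up to 5000 bp apart were chained, and 5 units held a single gene. Chromosome V carries 27 histone genes, IV 22, II 14, X 4, III 3 and I 2. Of the 72 genes, 62 stand in 31 divergent pairs, H2A beside H2B or H3 beside H4, or in the case of his-67 and his-68 H4 beside H2A. The gap between their starts is 227 to 368 bp long, with a median of 258 bp. No 5′ UTR is annotated for 64 of the genes, so the annotated transcript start is their start codon. Chained genes and both partners of a pair can share a peak and are not independent of each other.

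Peaks were assigned to a gene when the summit lay from 1000 bp upstream to 200 bp downstream of an annotated transcript start, which is called the promoter window here. A ranked peak is any entry of the authors' long list for both replicates together (117986 peaks), and a called peak is one with an irreproducible discovery rate (IDR) of 0.01 or less, which leaves 996. A low IDR means that a peak was found again with a like rank, in the other replicate or in another share of the reads. For a single replicate it is another share of its own reads. For the lists for both replicates these were not told apart here. The signal of a peak is the authors' own value. Its scaling is not stated, it is used to rank peaks within a list, and a value of each replicate comes from that replicate's own ranked list. No file gives read counts, so depth is unknown and signals carry no counting interval.

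Of the 72 histone genes, 5 (6.94%) had a called summit in the promoter window, against 2.48% of all protein-coding genes. These were the H4 genes his-37 and his-67, the H2A gene his-68 and the H2B genes his-58 and his-66, and they rest on 4 peaks in 4 of the 19 units, because his-67 and his-68 share 1. In replicate 1 alone the called genes were his-37, his-66, his-67 and his-68 (5.56%, against 1.08% of all protein-coding genes). In replicate 2 alone they were his-37 and his-66 (2.78%, against 0.976%). The authors' other list for both replicates called the same 5 genes, against 2.24% of all protein-coding genes. Only his-37 and his-66 were thus called in each of the separate replicates as well as in the lists for both together. With so few peaks the share moves by more than 1 percentage point with each of them.

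The strongest peak at any histone gene was that of his-37, an H4 gene that stands beside the divergent pair of his-35 and his-41 without a divergent histone partner of its own. Its signal was 345 in the list for both replicates, 177 in replicate 1 and 152 in replicate 2, and the −log10 IDR was 4.18, 3.79 and 3.66 in the same order. It ranked 25th in signal among all ranked peaks. The peak is narrow, 128 bp at V:9546975-9547102, where 968 of the 996 called peaks are 380 bp wide, and its summit at V:9547055 lies 50 bp upstream of the gene in intergenic sequence. The whole peak, from the RefSeq genome on the plus strand of WBcel235 (ce11), is shown with the 8-base word GTGTCCCC and the TATA-box core TATAAA in capitals, because both recur in the other histone promoters.

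his-37 peak: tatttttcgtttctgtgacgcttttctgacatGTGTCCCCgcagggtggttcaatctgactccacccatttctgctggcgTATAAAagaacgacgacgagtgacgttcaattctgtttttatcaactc

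The centre of the word lies 44 bp from the his-37 summit. At the ranked summits in divergent gaps the distance varied. The nearest word lay 7 bp from the his-61 summit and 141 bp from the called his-67 summit, and none was found around the his-31 summit. None of the 50-base words in the promoter window of his-37 occurs elsewhere in the genome.

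**Figure D1:**
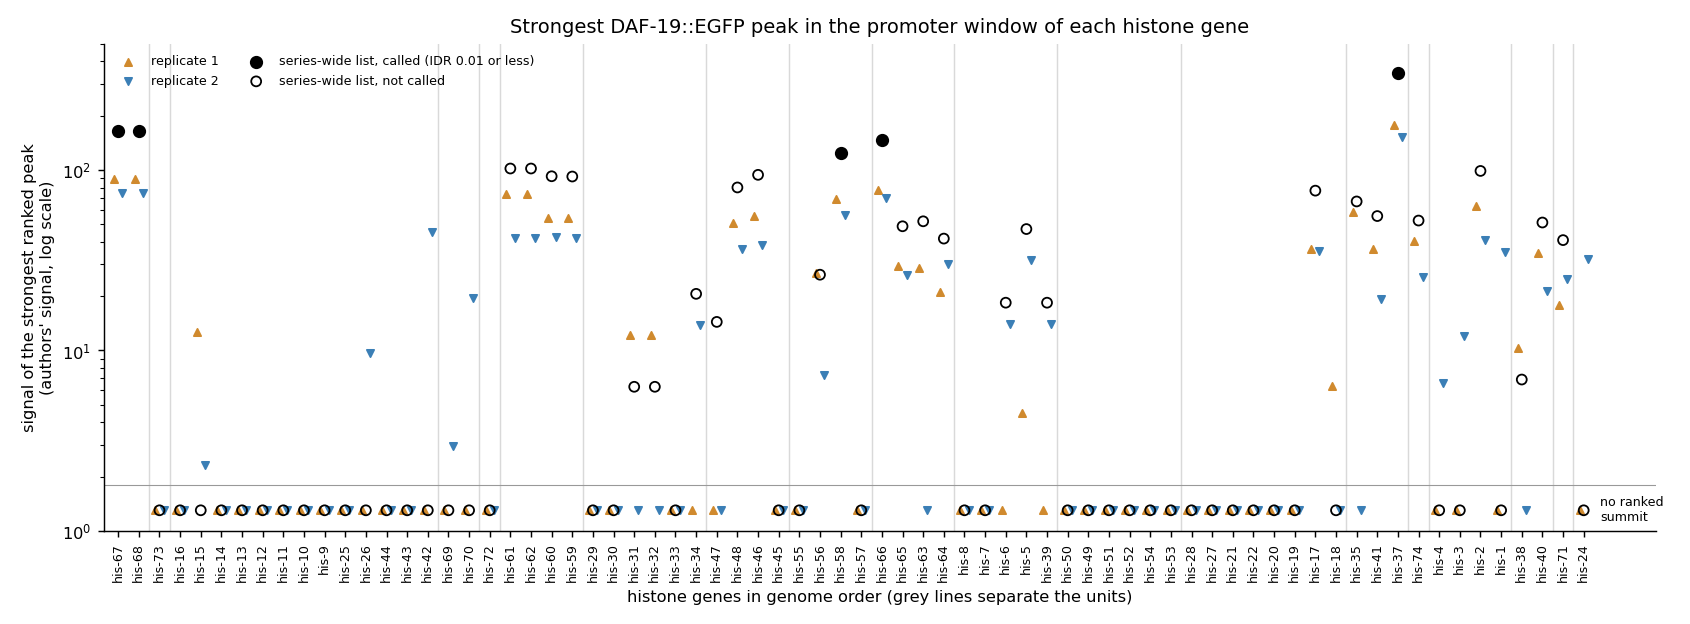
Signal of the strongest ranked peak in the promoter window of each of the 72 histone genes in genome order (y axis, authors' signal, log scale), in the list for both replicates (circles, filled where called) and in each replicate (triangles); points on the bottom line had no ranked summit. The point of his-37 stands highest at 345, the other called genes lie at 125 to 164, and long runs of genes on chromosomes II and V have no ranked summit in the list for both replicates.

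Both called H2B genes have their summit more than 800 bp away, past or inside the H2A gene on the other side of the shared gap. The his-66 peak reached 146, where replicate 1 had 77.2 and replicate 2 had 70.2. Its summit at IV:11401655 is intergenic, 869 bp upstream of his-66 and 180 bp after the stop codon of the H2A gene his-65. At his-58 the signal was 125, with 69.3 in replicate 1 and 56.5 in replicate 2, and neither replicate called it alone. That summit, at IV:11340942, lies 836 bp upstream of his-58, 147 bp after the stop codon of the short isoform of his-57 and in an intron of its longer isoforms. Both H2A genes are thus nearer to these summits than the H2B genes whose windows hold them. The share of sequence found more than once in the genome, counted as described below, was 100% in both shared gaps. Under the his-66 peak it was 6.65% and under the his-58 peak 16.6%. A missing summit in these gaps is therefore no measure of missing binding. Whether repeats set the place of the called summits was not tested. The 81 bases centred on each summit, on the plus strand of the same build, are shown because they hold neither the word nor TATAAA.

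his-65 summit, IV:11401615-11401695: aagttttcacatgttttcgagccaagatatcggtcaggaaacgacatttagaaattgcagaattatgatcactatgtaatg

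his-57 summit, IV:11340902-11340982: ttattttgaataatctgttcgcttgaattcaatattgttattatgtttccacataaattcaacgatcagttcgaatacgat

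The 81 bases at his-65 are 34.6% G or C and those at his-57 27.2%, and the 128 bases of the whole his-37 peak are 44.5%. The stretches differ in length, and no share for the genome or for all promoters was counted, so these values are a description only. With a window of 500 bp upstream in place of 1000 bp, his-58 and his-66 drop out and the called genes are his-37, his-67 and his-68 alone, against 1.74% of all protein-coding genes.

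A peak just short of the threshold in the list for both replicates lies between his-61 and his-62, a divergent H2A and H2B pair on chromosome IV. Its signal was 102 and its −log10 IDR 1.98, where 2 is needed, with 73.4 in replicate 1 and 42.0 in replicate 2. The −log10 IDR was lower elsewhere, 1.37 in the authors' other list, 1.88 in replicate 1 and 0.18 in replicate 2. The summit at IV:7486323 lies 106 bp upstream of his-61 and 222 bp upstream of his-62. The part of the gap that the peak covers is shown for comparison with the his-37 peak. Here the word stands on the minus strand and reads GGGGACAC, its centre 7 bp from the summit, and the TATA-box core, also on the minus strand, reads TTTATA.

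his-61/his-62, IV:7486218-7486512: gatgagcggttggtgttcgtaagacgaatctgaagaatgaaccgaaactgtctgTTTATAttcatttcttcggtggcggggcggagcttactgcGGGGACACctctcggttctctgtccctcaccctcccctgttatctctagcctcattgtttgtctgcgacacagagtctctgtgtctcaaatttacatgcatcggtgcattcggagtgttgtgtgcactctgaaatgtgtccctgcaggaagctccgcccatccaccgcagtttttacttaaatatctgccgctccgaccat

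Many histone promoters are copies of each other. The 292-bp gap between his-51 and his-52 on chromosome V is shown as an example. The gaps of his-54 and his-53, his-21 and his-22, and his-20 and his-19 hold the same 292 bases on one strand or the other, and none of these 8 genes had a ranked summit in any list.

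his-51/his-52, V:8850172-8850463: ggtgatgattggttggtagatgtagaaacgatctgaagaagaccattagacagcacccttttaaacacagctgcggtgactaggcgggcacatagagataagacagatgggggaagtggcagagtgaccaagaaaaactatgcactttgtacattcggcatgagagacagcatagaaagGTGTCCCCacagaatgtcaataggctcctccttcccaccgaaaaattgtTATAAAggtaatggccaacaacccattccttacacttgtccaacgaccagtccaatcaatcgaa

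Ranked summits of any strength were less common at histone genes than elsewhere. A ranked summit lay in 30 of 72 histone windows (41.7%), against 69.8% of all protein-coding windows. Among those 30 genes the strongest signal ran from 6.29 to 345 with a median of 54.0, and over all protein-coding genes with a ranked summit the median was 54.3. The comparison depends on the setting: the histone and the overall median were 76.9 and 54.3 in the authors' other list, over 25 histone genes, 92.1 and 47.9 with a window of 500 bp upstream, and 79.7 and 58.3 when any overlap of a peak with the window counted. Of the 30 genes, 15 lay above the median of 54.3, 11 at or above percentile 90 and 8 at or below percentile 10. In replicate 1 the median was 38.5 over 28 histone genes against 31.3 over all protein-coding genes, and in replicate 2 it was 31.7 over 33 histone genes against 27.3.

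Repeated sequence moved with this difference. For each window the share of its 50-base words that occur more than once in the nuclear genome, on either strand, was counted. The median share was 74.7% over the 72 histone windows and 0 over all protein-coding windows, and 36 histone windows were repeated over 75% or more of their words, against 303 of all protein-coding windows (1.52%). In this highly repeated class 6 of 36 histone genes (16.7%) had a ranked summit, against 10.9% of all protein-coding genes in the class. Below 75% the figures were 24 of 36 (66.7%) and 70.7%, but within this range the classes differed. With no repeated word 3 of 6 histone genes had a ranked summit, against 77.6% of all protein-coding genes, and with a share above 0 and under 10% they were 12 of 13 (92.3%), against 49.6%. All 20 histone windows repeated throughout lacked a ranked summit, as did all but 3 of the 185 protein-coding windows repeated throughout. Histone genes with a ranked summit had a median repeated share of 9.98% and those without one 99.8%. How the authors treated reads that map to several places is not given in the sources used here, so a missing peak in these windows is no measure of missing binding, and the part of repeats in the lower share was not tested.

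**Figure D2:**
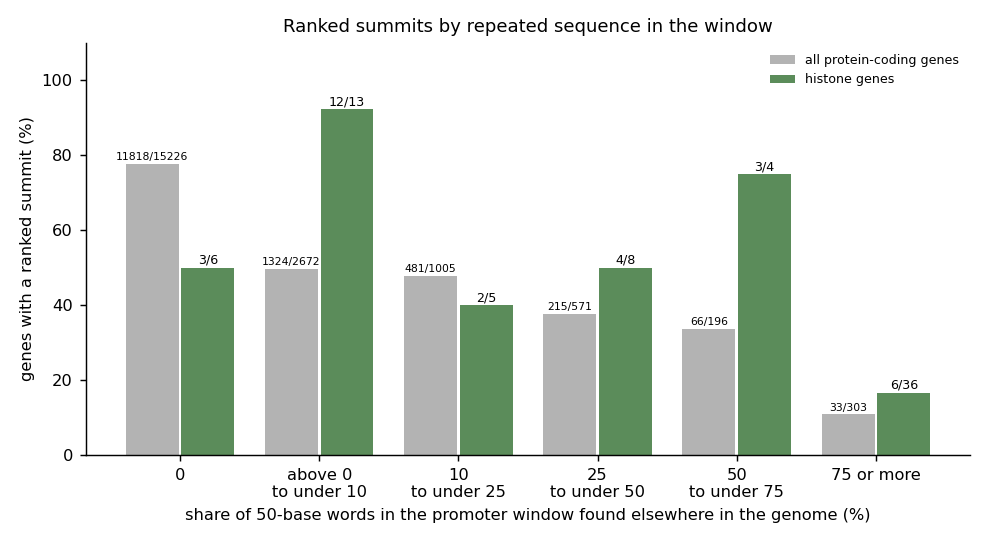
Percentage of genes with a ranked summit (y axis) by the share of repeated 50-base words in the promoter window (x axis, percent), for all protein-coding genes (grey) and histone genes (green), with the counts above the bars. In the last class, 75% or more, 6 of 36 histone genes and 33 of 303 protein-coding genes had a ranked summit.

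The units without any ranked summit in a promoter window were 6 of 19. Among them, those of his-73, his-69 with his-70, his-72 and his-24 had low median repeated shares, 11.3%, 4.99%, 0 and 0. A cluster of 13 genes on chromosome II, from his-16 to his-42 at II:13817760-13828697, had none in the list for both replicates, although in the separate replicates his-42 had a peak of 45.1 and his-26 one of 9.62, both in replicate 2, and his-15 had 12.7 in replicate 1 and 2.31 in replicate 2. The 6 genes from his-50 to his-53 at V:8847393-8854053 had none in any list, and every window there was repeated throughout. Of the 8 genes from his-28 to his-18 at V:8889488-8898539, his-17 alone had one in the list for both replicates, at 76.9, where replicate 1 had 36.6 and replicate 2 had 35.8, and his-18 had a peak of 6.38 in replicate 1. The his-17 summit lies 790 bp upstream, 243 bp after the stop codon of his-18 and 0.906% of the words under the peak are repeated.

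In the divergent gaps themselves peaks were rare. A ranked summit lay in 3 of 31 histone gaps (9.68%), those of his-67 and his-68, his-61 and his-62, and his-31 and his-32, where the signal was only 6.29. Of 296 gaps of the same range of lengths between other divergent protein-coding genes, 49.3% held a ranked summit. A called summit lay in 1 histone gap (3.23%) and in 3.38% of the other gaps. All 20 histone gaps repeated over 75% or more of their words were without a ranked summit. The gaps of his-66 and his-65 and of his-58 and his-57 are among these. Among gaps without any repeated word, 3 of 8 histone gaps (37.5%) and 141 of 277 other gaps (50.9%) held one. The unrepeated histone gaps without a summit were those of his-60 and his-59, his-35 and his-41, his-4 and his-3, his-2 and his-1, and his-38 and his-40. Of the 31 histone gaps, 16 are identical to another histone gap, and 21 different sequences make up the whole set.

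**Figure D3:**
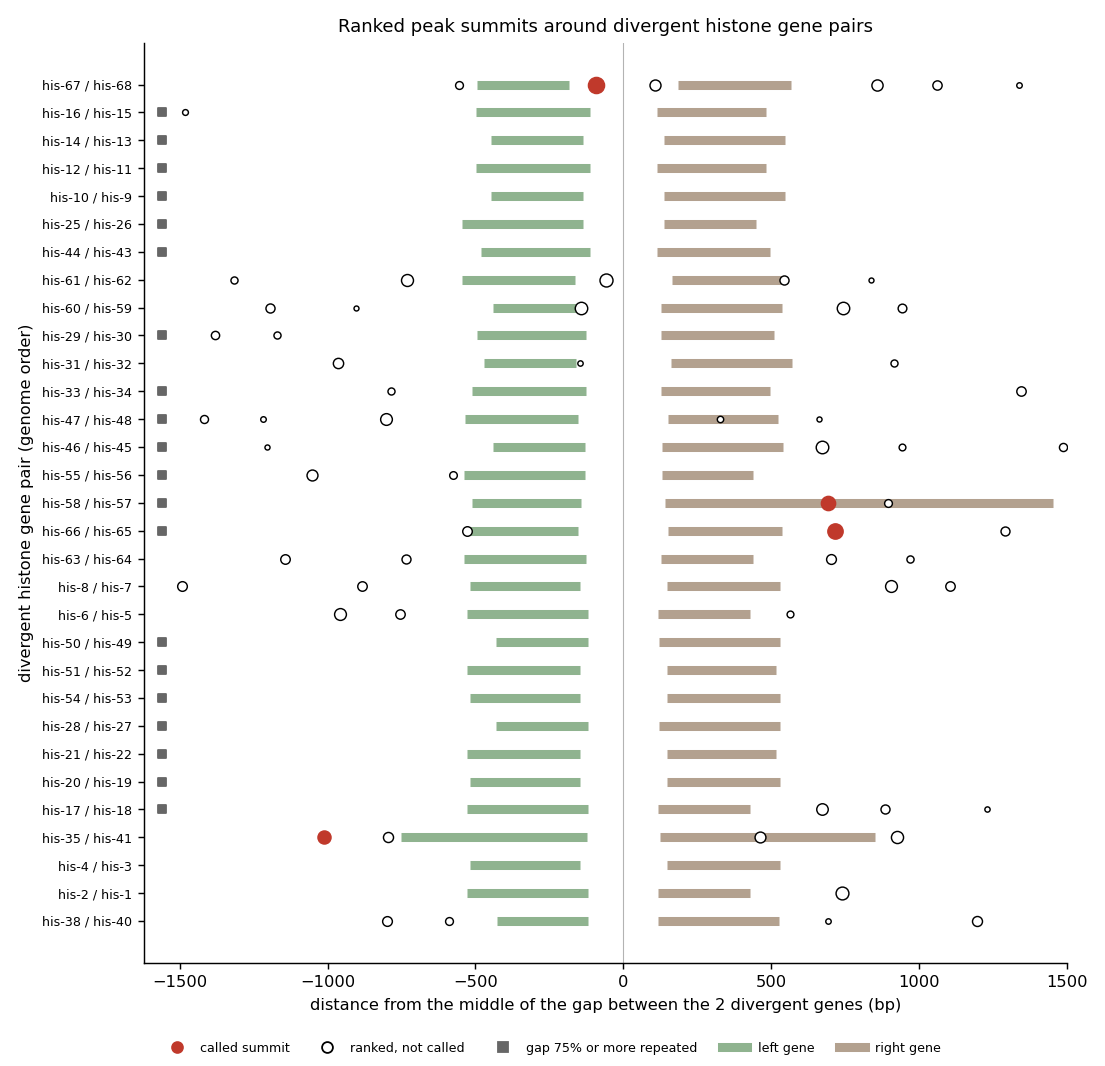
Ranked summits on both sides of the middle of the gap between the starts of the 31 divergent histone gene pairs (x axis, bp; y axis, pairs in genome order), with red circles for called summits, open circles for the rest, circle area rising with signal, and grey squares for gaps repeated over 75% or more of their words. The red circles of his-66/his-65 and his-58/his-57 lie beyond 500 bp from the middle, and 1 called summit, that of his-67/his-68, lies in the gap.

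The called gap was that of the H4 gene his-67 and the H2A gene his-68, the only histone genes on chromosome I. The summit, at I:9988856, lies 93 bp upstream of his-67 and 276 bp upstream of his-68, and also in the promoter window of the neighbouring Argonaute gene alg-5. Its signal was 164, with 89.6 in replicate 1 and 74.9 in replicate 2. Replicate 1 called it with a −log10 IDR of 2.48, and replicate 2 did not, with 1.13. The gap, at 368 bp the longest of the 31, held no repeated word.

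Over the 30 histone genes with a ranked summit, the strongest one lay between the divergent starts for 6 genes, inside the partner gene for 4, beyond the partner gene for 16 and upstream without a divergent histone partner for 4. Of these, 2, 1, 1 and 1 genes were called. The 30 genes share 26 different peaks. Peaks past a partner gene are at that gene's 3′ end, so the stretch after the stop codon was examined as well, a window chosen after the peaks had been seen. Within 500 bp after the stop codon, 4 of 72 histone genes (5.56%) had a called summit, against 1.16% of all protein-coding genes. Beside his-57 and his-65 these were his-35 and his-74. The his-57 and his-65 peaks are those counted above for his-58 and his-66, and they led to this window. The share is therefore no result separate from the promoter calls. The authors' other list for both replicates did not call the his-35 peak, which left 3 of 72 (4.17%), against 1.10%.

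The his-35 summit at V:9544400 reached 103, where replicate 1 had 54.1 and replicate 2 had 48.6, and lies 368 bp after the stop codon of this H2A gene. It also falls in the promoter window of mdf-1, a spindle checkpoint gene. At his-74, an H3.3 gene, the summit at V:12659656 reached 105, and the replicates gave 56.0 and 56.3. It lies 213 bp after the stop codon and in the 5′ UTR of the next gene, ccch-3. Neither replicate called either peak alone. A ranked summit of any strength lay after the stop codon of 31 of the 72 histone genes and of 10303 of all 19973 protein-coding genes. The share was thus lower for the histone genes, while the median of the strongest signals was 59.0 for them and 41.8 for all. In all, 6 called summits lay within 1000 bp of a histone unit, and 0 of them stood 200 bp or nearer to a gene for a tRNA, rRNA, snRNA or snoRNA. Without the peaks that near to such genes, 420 protein-coding genes had a called summit in the promoter window in place of 495, and the 5 called histone genes stayed the same.

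By class, H4 had the widest spread. A ranked summit lay at 9 of 16 H4 genes, from 6.29 at his-31 to 345 at his-37, with a median of 47.1. The H2B genes had one at 6 of 16, from 20.6 at his-34 to 146 at his-66, with a median of 91.0. The H2A genes had one at 5 of 17, from 14.4 at his-47 to 164 at his-68, with a median of 67.0, and 12 of the 17 H2A windows were repeated over 75% or more. These classes overlap in signal, and they share peaks through the pairs.

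No H3 gene was called, where 2.48% of all protein-coding genes were, so among 15 genes this is not read as a trait of the class. A ranked summit lay at 7 of 15, from 6.29 at his-32 to 98.9 at his-2, with a median of 52.0. The his-2 summit at V:16043141 lies in the noncoding RNA gene linc-61, 310 bp after the stop codon of his-1. It had 62.9 in replicate 1 and 41.2 in replicate 2, and a −log10 IDR of 0.30 in the list for both replicates and 1.71 in the authors' other list. Among the remaining genes of the named units, his-35 had 67.0 and his-41 55.6, his-65 had 48.8, his-63 52.0 and his-64 41.7, and his-56 had 26.3, while his-55 and his-57 had no ranked summit in their own windows. In the unit of his-61 and his-62, his-60 had 92.4 and his-59 92.1.

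The promoter windows of the variant genes, those of H3.3 and H1, held few or no repeats, with 9.98% at his-70 as the highest share. The called summit of his-74 lies after its stop codon, and none of these promoter windows held a called summit. With 2.48% called over all protein-coding genes, this is not read as a trait of so few genes. Of the 5 H3.3 genes, his-74 had 52.5 and his-71 had 40.9 in the list for both replicates, at percentiles 46.3 and 23.5 of the protein-coding genes with a ranked summit. The his-71 summit lies 58 bp upstream of the gene, where the strongest values in the window were 17.9 in replicate 1 and 24.9 in replicate 2, and the his-74 summit lies 949 bp upstream. For his-69, his-70 and his-72 there was no ranked summit in that list, and in the replicates there were peaks of 2.97 at his-69 and 19.6 at his-70, both in replicate 2. The H1 gene his-24 had a peak of 32.3 in replicate 2 and none in replicate 1 or in the list for both. Of the histone domain-containing genes his-39 had 18.4, from a summit shared with his-6, and his-73 had none. The repeated share was 0 at his-24, his-69, his-71, his-72 and his-74.

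By their strongest signal the units ranked alike in the replicates. Over the 14 units with a ranked summit in both, Pearson's r of the log2 signal was 0.68 and Spearman's rho 0.80. They are given as a description, since each point is the strongest of several peaks. Both values of a point can also come from different peaks. In the chromosome II cluster they were 12.7 at his-15 in replicate 1 and 45.1 at his-42 in replicate 2. Replicate 1 was higher in 10 of the 14, and the median ratio of replicate 1 to replicate 2 was 1.18. Gene by gene, over the 22 histone genes with a ranked summit in both, the ratio was 1.27, r 0.66 and rho 0.88, and replicate 1 was higher in 19. Over all protein-coding genes with a ranked summit in both, 13381 in number, the ratio was 1.14, r 0.47 and rho 0.42. These too are values per gene and not per unit. The scaling of both lists is not stated, so the ratio is no measure of binding.

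**Figure D4:**
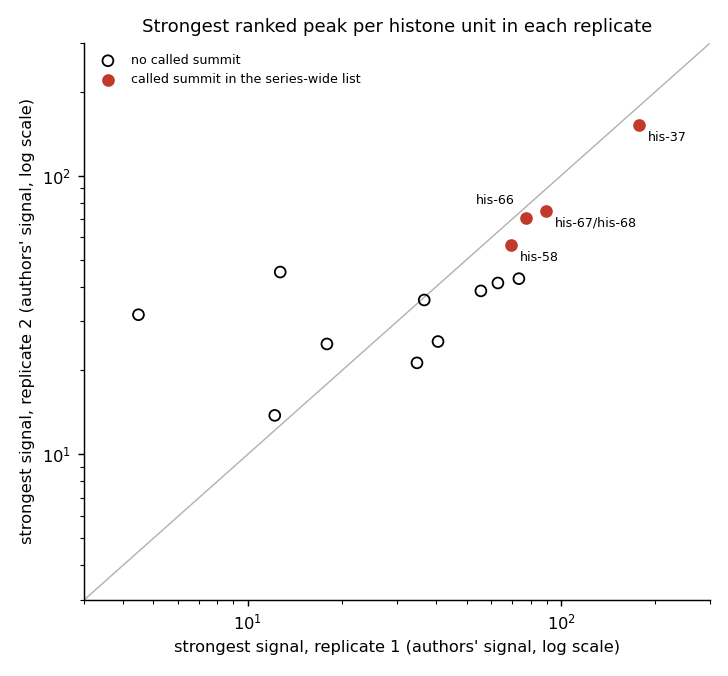
Strongest signal per histone unit in replicate 1 (x axis) and replicate 2 (y axis), both the authors' signal on log scales, for the 14 units with a ranked summit in both; red marks units with a called summit in the list for both replicates and the line marks equal values. The unit of his-37 stands apart at 177 and 152, and on the replicate 1 axis the uncalled unit of his-61 and his-62, at 73.4, lies above the called unit of his-58, at 69.3.

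Promoter sequence was compared in the 250 bases before and 50 bases after the outermost start, on both strands. The X-box consensus of DAF-19 matched 1 of 72 histone promoters (1.39%), that of his-70, which had no called summit, and 2.84% of all protein-coding promoters. TATAAA matched 47 (65.3%), against 37.9%. These matches are not independent: the 72 promoters of 250 bases come to 51 different sequences, and both partners of a pair can share 1 match in their gap. How far this raises the share was not tested. A match is a description of the letters only.

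To look for shared sequence, all 8-base words were counted in the 250 bases before the start. The one found in most histone promoters, among words in at most 1% of all promoters, was GTGTCCCC or its reverse complement. It was chosen from these promoters, so its frequency is no test. It stands in 44 of 72 histone promoters (61.1%), which come to 25 of 51 different sequences, and in 50 other protein-coding promoters (0.251% of them). By class it stands in 13 H2A, 12 H2B, 8 H3 and 10 H4 promoters and in that of his-24, and in none of the 5 H3.3 promoters. All 5 called histone genes carry it, although the his-58 and his-66 summits lie far outside these 250 bases, and his-67 and his-68 share 1 gap. As the word was picked from these promoters and stands in most of them, this is not read as a link between word and call. Of the 44 carriers 15 had a ranked summit. Among the 50 other genes with the word, 26 had a ranked summit, with a median signal of 51.6, and 2 were called, K07C5.13 and egl-17, the latter coding for a fibroblast growth factor. Over all protein-coding genes 69.8% had a ranked summit and 2.48% were called, and 26 and 2 of 50 are not read as a result about the word.

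Genes that act with histones were read from a list of 25 symbols, of which 24 were found. Among 11 further histone genes 0 were called and 6 had a ranked summit, with a median of 59.0. Over all protein-coding genes, 2.48% were called and 69.8% had a ranked summit, with a median of 54.3. The H2A.Z gene htz-1 had 67.7, with 46.7 in replicate 1 and 41.4 in replicate 2, and hcp-3, which codes for the centromeric H3, had 82.9, with 34.7 and 44.8. The H1-like genes hil-2 to hil-6 had no ranked summit. Among 13 histone supply and chaperone genes 12 had a ranked summit, with a median of 73.2, and 1 was called, lin-53, whose product binds histones in several chromatin complexes. Its summit lies 209 bp upstream, at a signal of 164 (75.5 and 94.7 in replicates 1 and 2), and both replicates called it. The gene cdl-1, whose product binds the stem-loop at the end of core histone mRNAs, had 49.9, with 29.0 in replicate 1 and 22.6 in replicate 2, and was not called.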

How the data were processed

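The deposited ranked and thresholded peak lists, on assembly ce11 (the same sequence as WBcel235), were used as the authors made them. For the aligner, caller, read filters, control and normalization there is no statement in the sources used here. Column 7 of the ranked lists is the authors' signal and column 12 the deposited −log10 IDR. Each thresholded list held exactly the ranked peaks at 2 or above, 996 and 915 for both replicates together, 408 for replicate 1 and 394 for replicate 2. The authors label a thresholded list for both replicates conservative, and the list used for the main counts is the larger, with 996. The 16 unnamed columns after the 12th in the lists for both replicates were not used. The ranked lists held 117986, 117981, 112641 and 110961 peaks. Depth is unknown, and whether the cultures were separate is stated only by the word biological.

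From these, summits were assigned to promoter windows, and the strongest and the called summit were taken per gene, over all 19973 nuclear protein-coding genes. No test was made over the histone genes. Repeated words were counted in the RefSeq genome. Assignment and repeat counting were tested on simulated data. The members, lists and sequence word were chosen with earlier results of these data known. Genes named are all called histone genes and their units, the highest and lowest of each class, the variants, and, of the related genes, the called ones, htz-1, hcp-3 and cdl-1. A few others, such as his-15, his-17 and his-42, were named after their values were seen. Alternatives changed the window, list, threshold, overlap rule and unit gap. Software was Python 3.11.15 with scipy 1.17.1, numpy 2.4.6, matplotlib 3.10.9 and pandas 2.3.3.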

Additional observations from a re-analysis of the deposited data

How the results depend on the processing

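Of 72 recomputed values 46 stayed within 1.5 times the reported count, or within the binomial interval of the reported median, and 26 moved; the cause was not tested, except that a narrower window or stricter IDR keeps fewer peaks by construction. With a window of 500 bp upstream there were 3 called histone genes in 2 units, and the median was 92.1 over histone genes and 47.9 over all protein-coding genes. With 2000 bp upstream these were 70.8 and 61.9, with any overlap 79.7 and 58.3, and in the other list 76.9 and 54.3. The overall median was 51.4 without the 200 bp downstream and 52.4 with outermost starts. An IDR of 0.05 or less gave 9 called histone genes and 1198 of all protein-coding genes, and 0.001 gave 3 genes in 2 units and 135. The 2000 strongest ranked peaks gave 9 genes in 7 units and 887. Leaving out either replicate gave 2 to 4 called histone genes, 2 to 3 units and 195 to 216 protein-coding genes. The medians were then 31.7 to 38.5 at histone genes and 27.3 to 31.3 at all genes. After the stop codon 1 histone gene (1.39%) was called in each case, his-65, whose peak is the one counted for his-66. Over all protein-coding genes the share was 0.436% in replicate 1 and 0.431% in replicate 2. Divergent gaps with a ranked summit numbered 4 in each replicate alone. X-box matches numbered 3 (4.17%) in the window of 1000 bp upstream to 200 bp downstream, against 10.7% of all protein-coding promoters. They were those of his-2, his-8 and his-70. No paired analysis was possible because there is 1 group. Without read counts, the weakest signals have no error.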
